A study of Mus musculus with 33 samples.

Results

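The genes described here are 9 scavenger receptors and related uptake proteins of tissue macrophages: Mrc1, Msr1, Marco, Cd36, Stab1, Timd4, Vsig4, Cd5l and Scarb1. They were taken by name from the 32285 genes of the deposited count matrices, and all 9 were present. Their levels were followed across macrophage types, tissues and biotin sorts, sample by sample.

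Scavenger receptors let macrophages take up oxidised lipoproteins, dying cells, bacterial products and glycoproteins from their surroundings. Which of them a macrophage carries depends on its tissue: the receptors Timd4 and Vsig4 are known from resident macrophages such as the Kupffer cells of the liver sinusoids, Marco from macrophages of the airways, liver and splenic marginal zone, and Mrc1 from macrophages at the borders of the brain and in many other tissues. Some of them are shared with endothelial cells that clear material from the blood, above all those of the liver sinusoids.

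The samples were mouse single-cell RNA-seq libraries. In the labelling method, SAMENT, tumour cells were injected that carry an enzyme, and this enzyme puts biotin on neighbouring cells. The substrate was given overnight, tissues were dissociated with collagenase, and cells were sorted into biotin positive (the labelled niche) and biotin negative fractions. Intracardiac injection spreads tumour cells through the arterial blood. For it there were 4 numbered samples of each sort from bone (femur and tibia), brain, liver and lung, 32 in all. Each is called a library here, but the sample titles do not say whether samples of a number were captured together. For a second route, which the labels call IIA without spelling it out, bone cells were pooled from 12 hashtagged samples, 6 of each sort, numbered 1 to 6. The hashtags are spelled differently in the matrix and in the authors' list of samples and were matched by their number, so every IIA sort and sample number rests on that match. The labels give no mouse strain, age, sex, or tumour cell line, and do not say whether a numbered library is 1 animal or a pool, so p-values measure the spread between these samples, which may be partly technical. All of the groups came from injected mice, and tissue from uninjected mice was not analysed here.

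Levels are given as CPM, the UMIs (counted molecules) of a gene per 1000000 UMIs of the cells named, with no length scaling, so they are compared between samples of a gene and never between genes. Total UMIs per sample ran from 497940 to 44874529 in the intracardiac libraries and from 2149784 to 27903856 in the hashtagged samples. Level differences within a cell type used samples with at least 10 of its cells.

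The mannose receptor Mrc1 (chr2:14229392-14332057, plus strand, GRCm38) takes up glycoproteins with mannose, fucose or sulphated sugars. The class A receptors Msr1 (chr8:39581685-39642673, minus strand) and Marco (chr1:120474538-120505024, minus strand) bind modified lipoproteins and bacterial surfaces. The class B receptors Cd36 (chr5:17781690-17888801, minus strand) and Scarb1 (chr5:125277087-125341094, minus strand) handle fatty acids with oxidised lipoproteins and the cholesterol of high density lipoprotein, in that order. Stab1 (chr14:31139013-31168641, minus strand) clears acetylated lipoproteins and matrix fragments from tissue fluid. Timd4 (chr11:46810800-46844332, plus strand) binds phosphatidylserine on dying cells, and Vsig4 (chrX:96247203-96293438, minus strand) binds complement fragments of the C3 family. Cd5l (chr3:87357881-87371073, plus strand) is a secreted macrophage protein of the scavenger receptor cysteine-rich family and no membrane receptor.

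The promoters of 4 members are shown because Timd4, Vsig4 and Cd5l had the most similar level profiles of the 9 genes, while Mrc1 was found in nearly every macrophage type. Each run is the 250 bases before the RefSeq start of the gene (GRCm38.p6), read 5′ to 3′ on the strand of the gene, and 7 of the 9 members had an entry, Msr1 and Scarb1 being the others. Capitals mark GAGGAA or its reverse TTCCTC, the core letters of sites of the myeloid factor PU.1, and TGCTGA or its reverse TCAGCA, the half-site of MAF factors. The windows are chr2:14229164-14229413 (plus) for Mrc1, chr11:46810549-46810798 (plus) for Timd4, chrX:96293439-96293688 (minus) for Vsig4 and chr3:87357631-87357880 (plus) for Cd5l.
Mrc1: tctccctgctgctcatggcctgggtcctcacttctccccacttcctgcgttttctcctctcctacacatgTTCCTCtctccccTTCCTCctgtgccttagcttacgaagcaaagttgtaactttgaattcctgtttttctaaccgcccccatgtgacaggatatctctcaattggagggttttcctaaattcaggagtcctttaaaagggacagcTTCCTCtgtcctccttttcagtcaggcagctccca
Timd4: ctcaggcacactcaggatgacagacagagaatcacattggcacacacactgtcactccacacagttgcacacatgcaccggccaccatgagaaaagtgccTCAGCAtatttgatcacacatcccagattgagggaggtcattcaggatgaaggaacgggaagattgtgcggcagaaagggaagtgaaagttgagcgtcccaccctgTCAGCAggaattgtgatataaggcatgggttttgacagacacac
Vsig4: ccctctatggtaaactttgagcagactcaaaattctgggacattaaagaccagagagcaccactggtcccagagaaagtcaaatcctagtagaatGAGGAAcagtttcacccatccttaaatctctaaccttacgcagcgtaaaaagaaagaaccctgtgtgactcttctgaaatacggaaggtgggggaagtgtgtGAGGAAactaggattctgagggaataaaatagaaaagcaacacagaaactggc
Cd5l: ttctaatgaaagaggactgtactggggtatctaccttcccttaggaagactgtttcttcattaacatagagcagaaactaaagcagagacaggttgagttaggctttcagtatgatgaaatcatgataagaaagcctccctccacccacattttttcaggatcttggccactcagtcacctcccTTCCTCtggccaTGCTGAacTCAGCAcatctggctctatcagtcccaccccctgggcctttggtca
The PU.1 letters stood 3 times before Mrc1, 2 times before Vsig4, 1 time before Cd5l and 0 times before Timd4, and the MAF letters 2 times each before Timd4 and Cd5l and 0 times before Mrc1 and Vsig4. Of the 7 promoters, 5 held the PU.1 letters and 4 the MAF letters, where 23.3% and 16.1% of 32851 promoters of the same length did. A match describes these letters only, and nothing is drawn from it about binding.

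Cells were clustered with the 9 genes left out, so that no cluster rests on them. Cluster 28 (1467 cells, macrophage-like) was led by Vcam1, Clec4f and Fcna and came mostly from liver and bone. Its liver and bone cells were not alike: Clec4f, known from Kupffer cells, stood at 2446 to 4398 CPM in the 3 positive liver samples against 5.30 to 121 in the 2 positive bone samples, and Spic, a factor of iron-recycling macrophages, at 88.9 to 200.5 against 579 to 996. Cluster 25 (1441 cells, macrophage-like) was led by Ccl12, Ptgds and Apoe and was largest in brain. Cluster 30 (450 cells) was microglia-like (Gpr34, Tmem119, P2ry12). Clusters 27 (3826 cells) and 26 (141 cells) were alveolar-macrophage-like (Plet1, Ear1) and came mostly from positive lung. Cluster 15 (1624 cells), with Pf4 and Spp1 among its leading genes, was given no name. In the IIA bone sample, cluster 0 (886 cells, with Pf4 and Hmox1 among its leading genes) was macrophage-like.

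The intracardiac libraries numbered 2 stood apart for several of the genes. In B and T cells, taken here as a background, Marco had a median of 79.6 CPM over the 8 libraries numbered 2 (27.5 to 117). Those numbered 1, 3 and 4 had medians of 1.81, 8.67 and 0. The same held for Mrc1 (45.0 against 8.49, 6.02 and 0), Cd5l (24.4 against 0.405, 3.21 and 0) and Vsig4 (19.1 against 0, 0 and 0). It did not hold for Cd36, with 7.30 in those numbered 2 and 9.11 in those numbered 1, and Scarb1 medians ran from 1.66 to 5.36. Libraries of the same number shared 0 cell barcodes in 112 pairs, while pairs of different numbers shared up to 7, with 341 of 56724 distinct barcodes found in more than 1 library. The main results that rest on libraries numbered 2 are therefore given with and without them where enough samples remain, and levels in a macrophage type are read against the level in B and T cells. Of 90 combinations of member, macrophage cluster and tissue, IIA cluster 0 included, 54 lay more than 10 times above B and T cells of the same tissue, a B and T level under 1 CPM being set to 1.

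**Figure D1:**
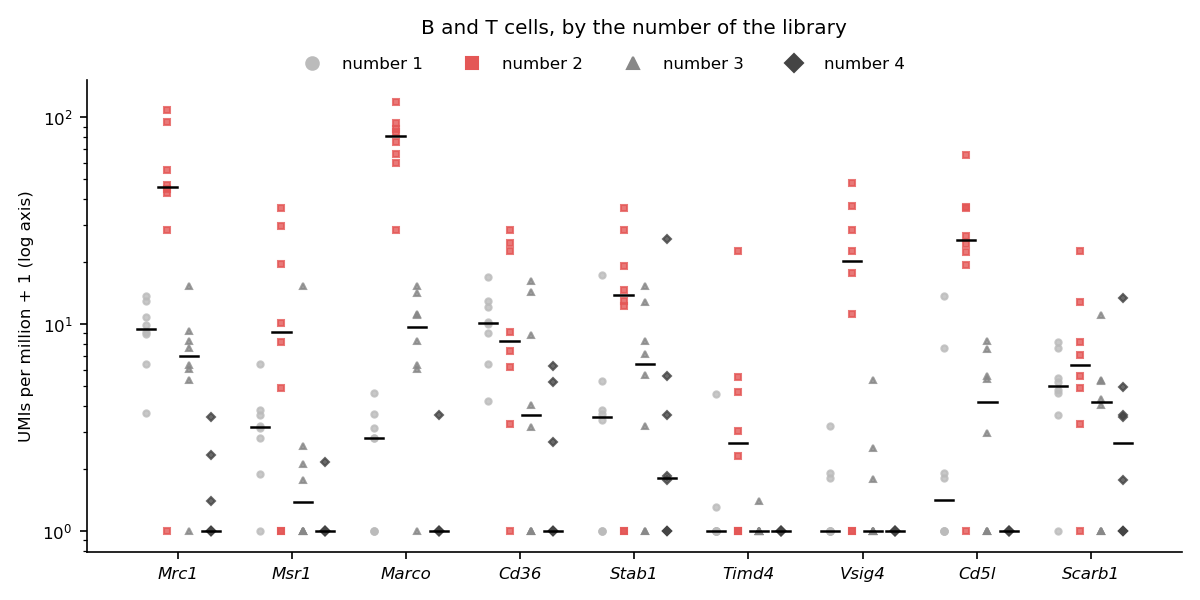
Level of each gene in B and T cells (CPM plus 1, log axis) in the 32 intracardiac libraries, grouped by library number; bars are medians. Libraries numbered 2 (red squares) lie above all others for Marco, with a median of 79.6, and have the highest medians for Mrc1, Vsig4 and Cd5l, where their ranges overlap the others.

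The 9 genes split the macrophage types between them. Timd4, Vsig4 and Cd5l had their highest levels in liver cells of cluster 28. Stab1 was highest in cluster 25 of the brain, Marco and Cd36 were high in alveolar-macrophage-like cells, where Stab1 was at the level of B and T cells and Msr1 had its lowest means, and Mrc1 was high in all of the macrophage clusters apart from the microglia-like cells. Since clusters were made from the same cells, these differences between clusters are a description with no test, and the orders below use positive samples.

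Mrc1 stood at 2174 and 5056 CPM in bone cells of cluster 28 and at 4054, 3543, 1188 and 2028 in brain cells of cluster 25. It stood at 1312, 1805, 1467 and 1448 in cluster 27 of the lung and at 1191, 1243 and 576 in liver cells of cluster 28. Bone cells of cluster 28 overlapped brain cells of cluster 25, and cluster 27 of the lung lay above liver cells of cluster 28 in every sample. Bone cells of cluster 25 had a mean of 1535 over 2 samples. In microglia-like cells Mrc1 was at 0, 2.77 and 2.97 in libraries 1, 3 and 4 and at 89.4 in library 2, where B and T cells of the same library number had a median of 45.0. Microglia-like cells were thus at the bottom of the order, and the 1 raised value came from a library numbered 2.

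Msr1 was at 497, 885 and 567 in liver cells of cluster 28 and at 556, 550, 449 and 399 in the unnamed cluster 15 of the lung, with overlapping samples. Brain cells of cluster 25 had 190, 251, 165 and 134. Alveolar-macrophage-like cells of cluster 27 had 11.0, 34.0, 17.9 and 4.49, below every one of these samples. The 2 class A receptors therefore parted in the lung, where Marco was high in cluster 27.

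Marco reached 1131, 3989 and 770 in liver cells of cluster 28, the value of 3989 coming from the library numbered 2. Cluster 27 of the lung had 363, 510, 1167 and 634, and cluster 26 had 314, 475 and 802. In brain cells of cluster 25 it was at 1.62, 62.1, 0 and 3.34, where the 62.1 again came from library 2 and lay under the level in B and T cells of that number. Liver and alveolar-macrophage-like cells overlapped, and both lay above the brain cells in each sample.

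Cd36 was at 413, 388, 467 and 317 in cluster 27 of the lung and at 285, 140 and 241 in liver cells of cluster 28, with no overlap. Brain cells of cluster 25 held 220, 203, 41.2 and 174, and microglia-like cells 0, 0, 2.77 and 0. Cd36 was also carried by monocyte-like cluster 10 (led by Ace and Adgre4), at 322 to 660 over 8 lung samples. Endothelial-like cluster 19 of the lung reached 1752 and 2157, so lung samples held Cd36 in more than macrophages.

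Stab1 was at 1140, 705, 418 and 608 in brain cells of cluster 25 and at 95.7, 313, 183 and 187 in microglia-like cells, with no overlap. Bone, liver and lung cells of cluster 25 had means of 516, 229 and 223, over 2 samples each. Liver cells of cluster 28 had 76.2, 116 and 72.0. Cluster 27 of the lung had 3.24, 11.5, 4.01 and 0, in the range of B and T cells. In the liver the gene was higher in endothelial-like cluster 29, at 945 to 1380 over 7 samples, where Mrc1 was at 995 to 2140 and Msr1 at 171 to 808.

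Timd4 stood at 337, 429 and 347 in liver cells of cluster 28, above 137 and 85.0 in its bone cells and 32.4, 27.01, 35.3 and 10.0 in brain cells of cluster 25. It was at 0 in all 4 microglia-like samples, and at most 2.18 in cluster 27. Vsig4 was at 1748, 2278 and 1418 in liver cells of cluster 28, 21.0 times the mean of its bone cells (73.7 and 98.8), which came next in the order. Cd5l was at 3400, 3795 and 3818 in liver and at 1111 and 853 in bone cells of cluster 28. Outside cluster 28 its highest mean in intracardiac samples was 156, in cluster 25 of the lung, where the samples were at 0 and 311.98, and in IIA cluster 0 its mean was 219.8 over 6 samples from 1.45 to 571. For all of Timd4, Vsig4 and Cd5l the liver samples lay above the bone samples of cluster 28. Below them, the Cd5l bone samples lay above every other intracardiac cluster, while for Vsig4 they overlapped liver cells of cluster 25 (0 and 89.3). For Timd4 they overlapped dendritic-like cluster 12 of the lung, at 87.7, 56.0, 26.2 and 15.6.

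Scarb1 ran from a mean of 11.7 in brain cells of cluster 25 to 155 in liver cells of cluster 28. Liver cells of cluster 28 had 176, 173 and 114 and bone cells 100.03 and 101. It was at 53.8 to 66.2 in cluster 27 of the lung, and at 71.1 to 145 in monocyte-like cluster 10 of the lung. Monocytes of the lung thus lay within the range of the macrophage clusters.

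**Figure D2:**
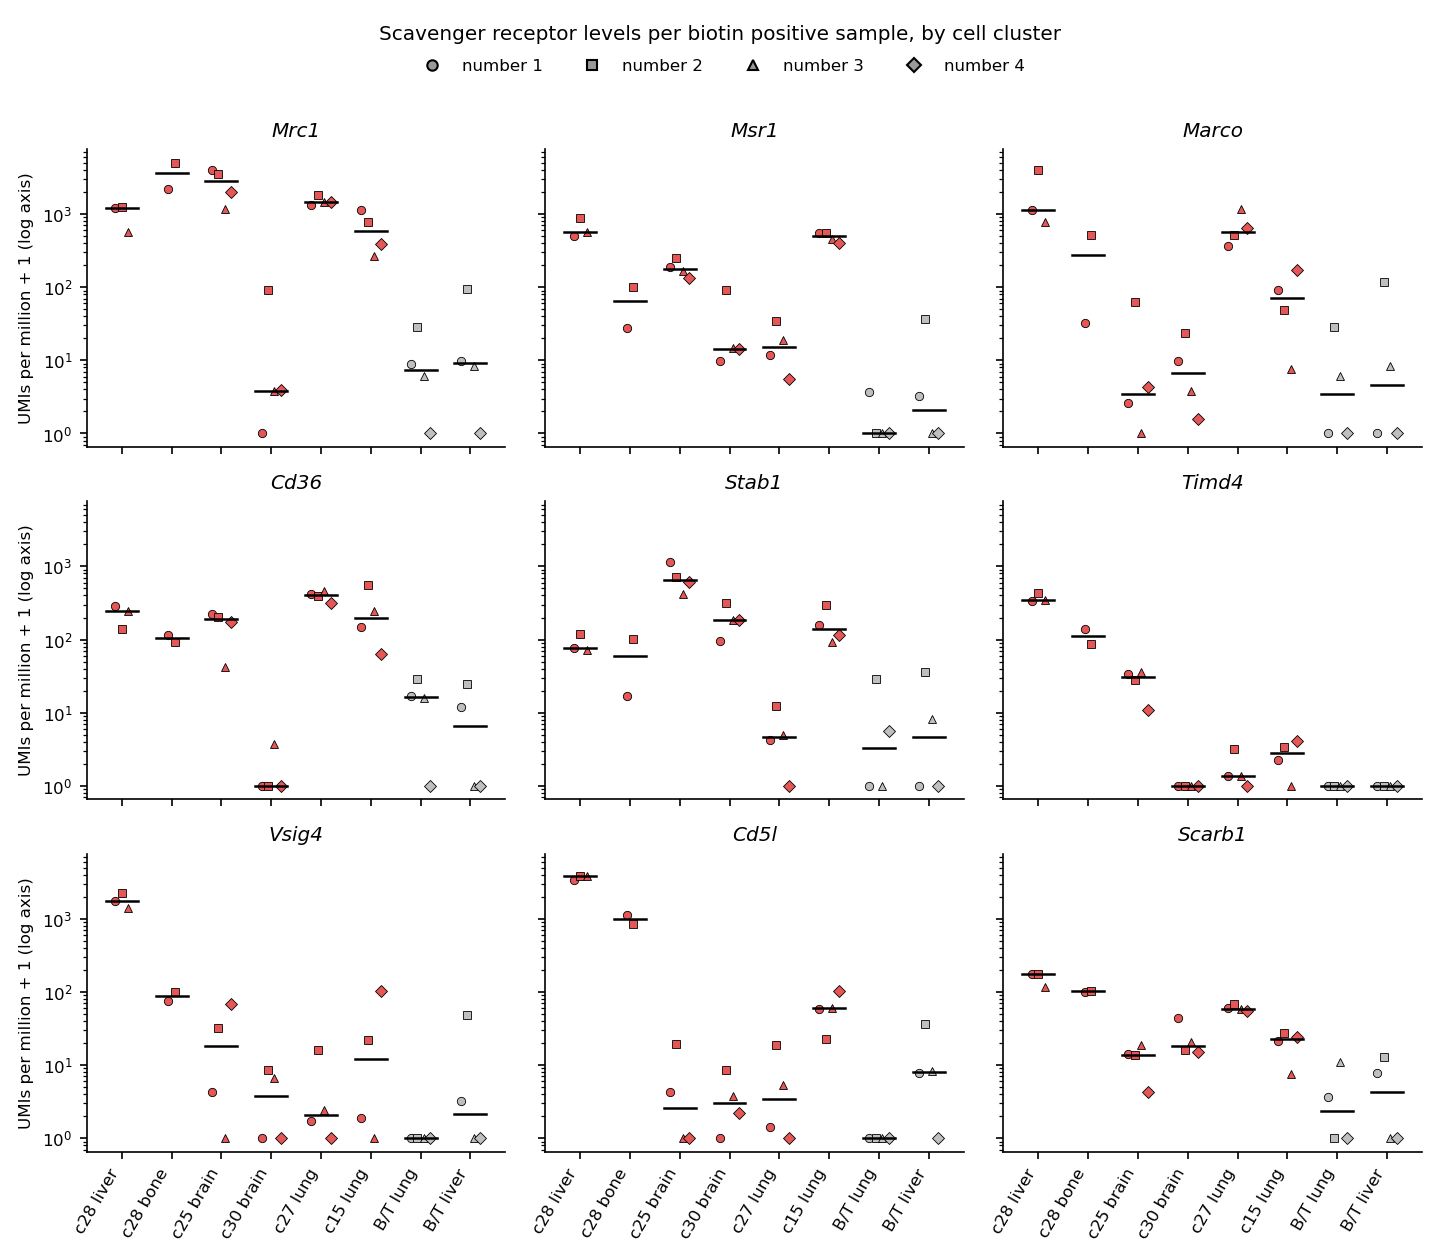
Level of each gene (CPM plus 1, log axis) in each biotin positive intracardiac sample, by cluster and tissue, with B and T cells in grey; marks show the library number and bars the median. Vsig4 and Cd5l are high in cluster 28, Stab1 in cluster 25, and Marco in cluster 28 of the liver and cluster 27 of the lung.

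Over 24 pools of 1 cluster in 1 tissue, which share libraries and depth, log levels of Timd4 and Vsig4 had a Pearson correlation of 0.94, Timd4 and Cd5l of 0.91 and Vsig4 and Cd5l of 0.91, as a description. The lowest was -0.22, between Stab1 and Scarb1. Among 5295 genes compared over the same pools, the profile most like Vsig4 was that of Clec4f (0.97), and the most like Mrc1 were Axl (0.96) and Dab2 (0.95). Marco was most like Sh3bgrl2 (0.96), Stab1 most like C3ar1 (0.96) and Gas6 (0.94), Timd4 most like Adcy4 (0.96), and Cd5l most like Dmpk (0.95). Cd36 (0.93, Arhgef3), Msr1 (0.91, Ecm1) and Scarb1 (0.87, Capzb) had looser matches.

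Liver and bone cells of cluster 28 were then set against each other within the positive sort, 3 samples against 2, a comparison added after the levels had been seen. In liver, Vsig4, Msr1, Cd5l and Timd4 were higher and Mrc1 was lower. Of the 9 members, 5 passed an adjusted p of 0.05 in edgeR's quasi-likelihood test over 4549 genes, 4 of them higher and 1 lower in liver, where 6.53% of genes passed in either direction. The median log2 fold change was 1.93 over the members and 0.03 over all genes.

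Vsig4 had a log2 fold change of 4.47 (SE 0.42, adjusted p = 0.000191, edgeR), Msr1 of 3.29 (SE 0.51, adjusted p = 0.00308) and Cd5l of 2.03 (SE 0.35, adjusted p = 0.00525). Timd4 followed at 1.93 (SE 0.34, adjusted p = 0.00558). For these 4 genes every liver sample lay above every bone sample. Mrc1 was at 2174 and 5056 in bone against 1191, 1243 and 576 in liver, a log2 fold change of -1.75 (SE 0.45, adjusted p = 0.0434, edgeR), again with no overlap.

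Marco (31.6 and 513 in bone) was at 2.86 (SE 0.95, adjusted p = 0.121, edgeR) and did not pass, although its samples did not overlap. Cd36 was at 1.21 (adjusted p = 0.0971), Scarb1 at 0.75 (adjusted p = 0.221) and Stab1 at 0.51 (adjusted p = 0.699). The bone value of 513 for Marco came from the library numbered 2. Without the libraries numbered 2, 2 liver samples and 1 bone sample remained, so only log2 fold changes are given. They were 5.02 for Marco, 4.55 for Vsig4, 4.44 for Msr1, 1.84 for Cd5l, 1.45 for Timd4 and -1.17 for Mrc1. The call for Mrc1 was lost when any of the 3 liver samples was left out (fold changes from -2.25 to -0.94 with each sample left out). Leaving out a bone sample left 1, with no spread of its own, so no call is read from it for any gene.

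Other genes differed between these cells. Of 14 macrophage transcription factors tested 3 were higher and 2 lower in liver (median log2 fold change 0.18), among them Id3 at 4.87, Pparg at -3.48 and Spic at -2.43. Of 12 lipid uptake and efflux genes tested of 14 listed, 2 were lower, the fatty acid binding proteins Fabp4 (-4.91) and Fabp5 (-1.93). Of 8 other scavenger receptors tested of 15 listed, 0 passed. The hepatocyte list summed to 1522 and 2648 in bone and to 406 to 936 in liver, with up to 9 and 2 of its 10 genes at 0 in a sample and Alb at 0 in bone and 12.7 to 152 in liver, and the endothelial list to 79.0 and 87.1 in bone against 389 to 609 in liver. Their part in the result was not tested.

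**Figure D3:**
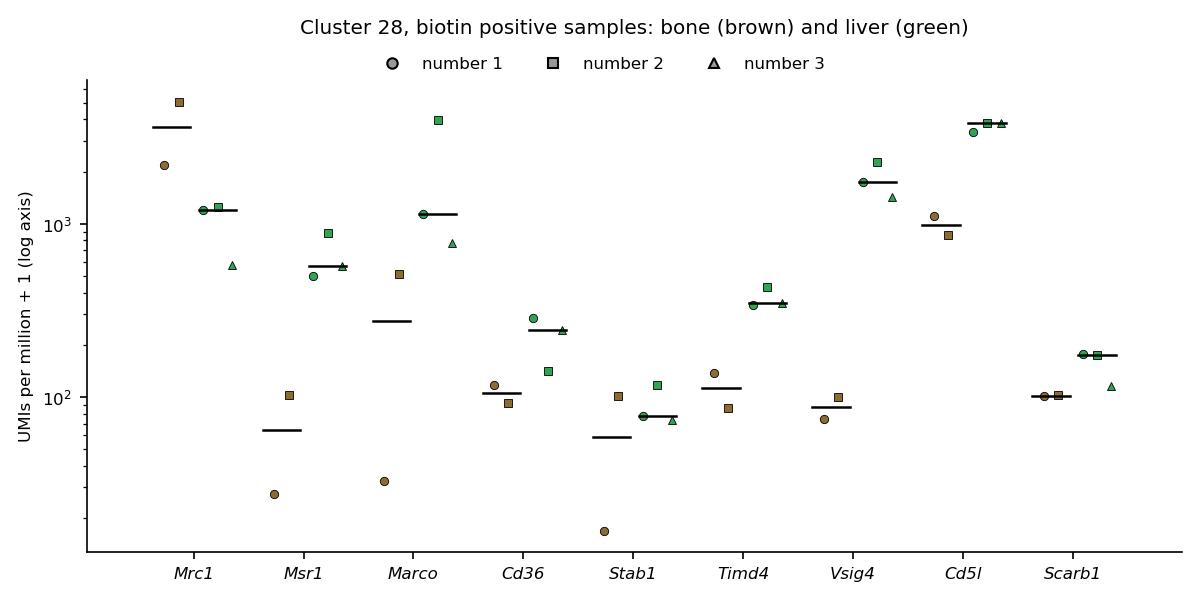
Level of each gene (CPM plus 1, log axis) in cluster 28 of the 2 bone (brown) and 3 liver (green) biotin positive samples; marks show the library number and bars the median. Msr1, Marco, Timd4, Vsig4, Cd5l, Cd36 and Scarb1 lie higher in liver and Mrc1 lower.

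Whether the labelled niche differed was asked first over all cells of a sample, where fewer cells of a type and less RNA per cell cannot be told apart. In the lung, Mrc1 and Cd36 rose in the positive sort. Mrc1 was at 23.4, 71.5, 14.7 and 12.8 in negative and at 914, 1553, 643 and 382 in positive samples, a log2 fold change of 4.44 (SE 0.72, adjusted p = 0.00531, edgeR). Cd36 was at 20.6, 30.2, 26.5 and 6.06 against 333, 400.1, 222 and 96.5, a change of 3.37 (SE 0.55, adjusted p = 0.00531). Both were higher in all 4 positive samples than in any negative sample.

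Those were 2 of 9 members, all tested, where 11.5% of 12331 genes rose in the lung, 6.8% fell and 18.3% passed in either direction. The median log2 fold change was 0.64 over the members and -0.04 over all genes. Marco was at 5.19, 75.1, 6.47 and 2.31 against 203, 417, 505 and 166 (3.45, SE 1.12, adjusted p = 0.061), with every positive sample above every negative one. The highest negative value came from the library numbered 2. Without the libraries numbered 2, 5 members passed in edgeR: Mrc1 (5.11, adjusted p = 0.00148), Marco (5.92, adjusted p = 0.00186), Cd36 (3.53, adjusted p = 0.00821), Stab1 (1.91, adjusted p = 0.0417) and Cd5l (2.64, adjusted p = 0.0488). The share of all genes passing in that fit is not given here, so this count has no background beside it. With all libraries the fold of Cd5l was 0.26, and it was -0.07 without lung negative 1 and -0.04 without lung negative 3. Leaving out lung negative 2 alone gave the same count of 5. Macrophage-class cells made up 0.227% to 1.23% of negative and 15.6% to 82.5% of positive lung cells. Endothelial-class cells made up 0% to 0.238% of negative and 0.247% to 5.82% of positive lung cells. The part of these shares in the all-cell results of the lung and the tissues that follow was not tested.

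In the lung 5 of 11 other scavenger receptors tested rose, among them Olr1, the receptor for oxidised low density lipoprotein (3.56), Scarb2 (1.28) and Cd68 (1.01). Of 13 lipid genes tested 7 rose, with Fabp4 at 3.91, the cholesterol exporter Abcg1 at 3.36 and the lysosomal lipase Lipa at 2.15. Of 14 transcription factors 4 rose, with Pparg, a factor of alveolar macrophages, at 4.51.

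In the brain, Stab1 stood at 3.29, 33.2, 16.3 and 3.87 in negative and 161, 538, 110 and 119 in positive samples, with no overlap. Its log2 fold change was 3.71 (SE 0.89, adjusted p = 0.0587, edgeR) and did not pass. Mrc1 (10.4, 111, 43.7 and 7.99 against 563, 2665, 169 and 148; 4.01, SE 1.22, adjusted p = 0.109) did not either. Scarb1 ran the other way, at 30.9, 21.5, 38.4 and 18.6 against 20.4, 16.2, 15.1 and 17.1 (-0.92, SE 0.22, adjusted p = 0.0584). Of 8 members tested 0 passed in edgeR, where 3.06% of 11064 genes passed (2.88% higher and 0.181% lower). At an unadjusted p under 0.05 there were 4 members, beside 21% of genes, and 3 passed in DESeq2, beside 11.1% of genes.

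Libraries of the same number deviated together in the brain, so the replicate number was added to the model as a block. With it, 4 members passed where 6.89% of genes did: Stab1 (4.02, SE 0.50, adjusted p = 0.0111, edgeR), Timd4 (3.23, SE 0.52, adjusted p = 0.0204) and Mrc1 (3.85, SE 0.65, adjusted p = 0.0236) rose, and Scarb1 fell (-0.89, SE 0.19, adjusted p = 0.0477). Timd4 was at 0.10, 2.37, 0.76 and 0.10 against 4.55, 20.2, 5.27 and 1.14. Without the libraries numbered 2 and without the block, Stab1 passed (3.93, adjusted p = 0.034) and Mrc1 did not (3.69, adjusted p = 0.0793). Macrophage-class cells were 0.83% to 8.02% of negative and 36.5% to 84.3% of positive brain cells. Endothelial-class cells were 0.105% to 1.10% of negative and 0.593% to 6.52% of positive brain cells.

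In intracardiac bone and liver 0 members passed in edgeR, where 0% of 12533 and 0% of 11854 genes passed. In bone 2 of 7 members tested had an unadjusted p under 0.05, beside 7.84% of genes, and 0 passed in DESeq2, beside 0.423%. Among the 2 was Mrc1 at 7.43, 25.4, 3.43 and 0.78 in negative and 68.8, 631, 4.28 and 2.70 in positive samples (3.95, SE 1.67, adjusted p = 0.615). Positive samples 1 and 2 were high and samples 3 and 4 were within the negative range. In liver 7 of 9 members had an unadjusted p under 0.05, beside 13.3% of genes, and 1 passed in DESeq2, beside 3.64%. Timd4 was at 0.61, 4.81, 4.18 and 0.31 against 11.4, 361, 23.1 and 0 (5.06, SE 1.47, adjusted p = 0.221), and Vsig4 at 0.10, 30.3, 13.6 and 0.16 against 60.8, 1917, 92.6 and 0. Macrophage-class cells were 81.3% of liver positive 2 and 0 of the 94 cells of liver positive 4, and 0.315% to 4.50% of negative liver cells. In bone they were 0.034% to 0.531% of negative and 0.694% to 32.9% of positive cells. Endothelial-class cells were 0.416% to 3.73% of negative and 2.03% to 19.5% of positive liver cells.

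In the IIA bone sample, Mrc1, Stab1, Cd5l and Cd36 rose in the positive sort over 6 samples against 6. Mrc1 ran from 2.12 to 8.09 (median 2.62) in negative and from 20.5 to 582 (median 38.8) in positive samples, without overlap, a log2 fold change of 5.27 (SE 0.98, adjusted p = 0.000889, edgeR). Stab1 ran from 1.5 to 5.88 (median 2.02) against 6.05 to 203 (median 18.9), also without overlap (4.20, SE 0.87, adjusted p = 0.0018). Cd5l ran from 0.11 to 2.45 (median 0.21) against 0.26 to 25.1 (median 10.8; 3.86, SE 0.89, adjusted p = 0.00353) and Cd36 from 1.41 to 6.32 (median 2.90) against 3.72 to 210.3 (median 18.0; 3.79, SE 0.98, adjusted p = 0.00675), both with overlapping samples.

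Those 4 of 6 members tested rose where 27% of 12625 genes rose and 50.2% passed in either direction. The median log2 fold change was 3.82 over the members and 0.08 over all genes. Msr1 ran from 13.6 to 36.0 against 2.79 to 282 (1.88, adjusted p = 0.0905), with samples 1 to 3 high and 4 to 6 low in the positive sort. Scarb1 samples overlapped, at 31.3 to 39.7 against 30.4 to 54.5 (0.08, SE 0.15, adjusted p = 0.69, edgeR). Marco, Timd4 and Vsig4 were too low to be tested. Macrophage-class cells were 0.065% to 1.63% of negative and 4.25% to 51.5% of positive cells.

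**Figure D4:**
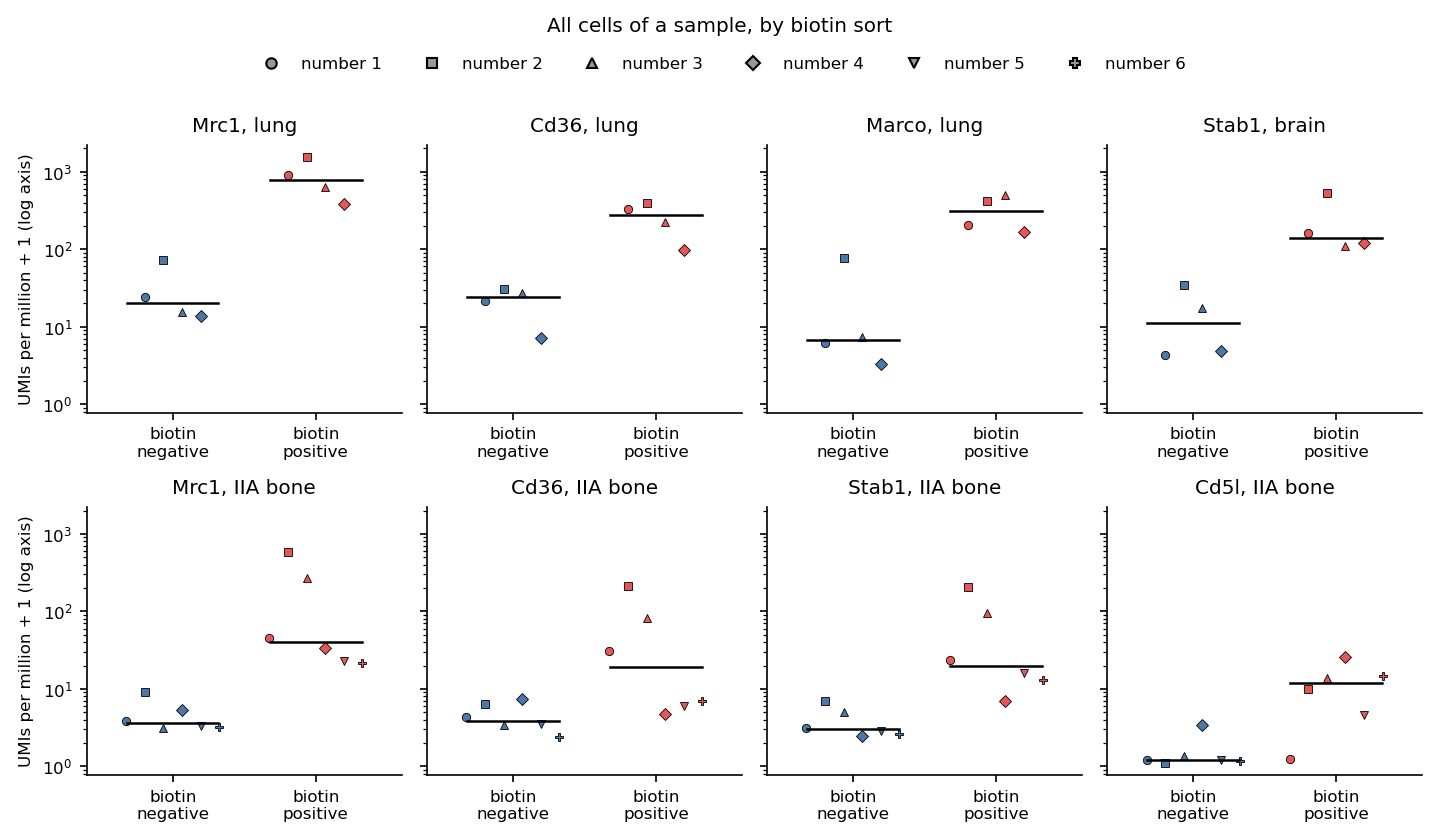
Level over all cells of a sample (CPM plus 1, log axis) in biotin negative (blue) and positive (red) samples of lung, brain and IIA bone; marks show the library or sample number and bars the median. Positive samples lie above negative ones without overlap for Mrc1, Cd36 and Marco in lung, Stab1 in brain, and Mrc1 and Stab1 in IIA bone.

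The difference between tissues in the response to the sort was tested over all 32 intracardiac samples. Of the 9 members 0 passed in edgeR or DESeq2, with 1.15% of 13963 genes passing in edgeR. The count at an unadjusted p under 0.05 was 1, for Scarb1 (adjusted p = 0.265 in edgeR), beside 13% of genes. With the replicate number as a block 1 member passed, beside 4.94% of genes. A rise in the lung is not shown by the main fit to differ from the other tissues.

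Single macrophage clusters were then compared between the sorts. The best match of cluster 25 shared 0.574 of the joint cells when the members were kept in clustering and 0.503 at resolution 2.0. Cluster 27 of the lung shared 0.996 and 0.63, and clusters 26, 28 and 30 shared 0.952 or more in both. In brain cells of cluster 25, Mrc1 was at 957, 977, 591 and 763 in negative and 4054, 3543, 1188 and 2028 in positive samples. Stab1 was at 244, 345, 164 and 194 against 1140, 705, 418 and 608. All positive samples lay above all negative samples for both genes, and the positive library was higher within each number. Mrc1 had a log2 fold change of 1.57 (SE 0.34, adjusted p = 0.0659, edgeR) and Stab1 of 1.44 (SE 0.31, adjusted p = 0.0659).

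Of the 4 members tested in cluster 25 of the brain 0 passed in edgeR, where 0% of 3839 genes passed. All 4 had an unadjusted p under 0.05, beside 16.6% of genes, and 2 passed in DESeq2, beside 5.16%. Same-numbered libraries deviated together here too, if barely for the lowest pair (correlations of 0.10 to 0.43). With the number as a block 3 of 4 passed, where 7.81% of genes did: Mrc1 (1.44, SE 0.20, adjusted p = 0.00346, edgeR), Stab1 (1.36, SE 0.21, adjusted p = 0.00458) and Cd36 (1.21, SE 0.33, adjusted p = 0.0424). Cd36 was at 157, 54.4, 47.5 and 37.9 against 220, 203, 41.2 and 174. Library 3 did not rise, and without brain positive 3 the same count of 3 passed with no block. In the matching clusters of the other clusterings the folds were smaller and did not pass, at 0.58 and 0.50 for Mrc1 and 0.58 and 0.70 for Stab1 (adjusted p = 0.789, 0.999, 0.83 and 0.976, edgeR, no block). Without the libraries numbered 2, Mrc1 (1.48, adjusted p = 0.294) and Stab1 (1.70, adjusted p = 0.215) did not pass.

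In the model with the block 3 of 7 other scavenger receptors tested rose and 1 fell, where 0 passed without it. Cd163, which takes up haemoglobin bound to haptoglobin (1.94), and the collectin Colec12 (2.17) were among those that rose, and the membrane chemokine Cxcl16 (-1.43) fell. Of 7 transcription factors tested 1 rose, Maf (1.58), and of 9 lipid genes 0 passed. The platelet or megakaryocyte list, with up to 9 of its 10 genes at 0 in a sample, summed to 179 to 714 in negative and 723 to 2367 in positive samples, and the microglia list to 4692 to 10618 against 5187 to 8793. Their part in the result was not tested.

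**Figure D5:**
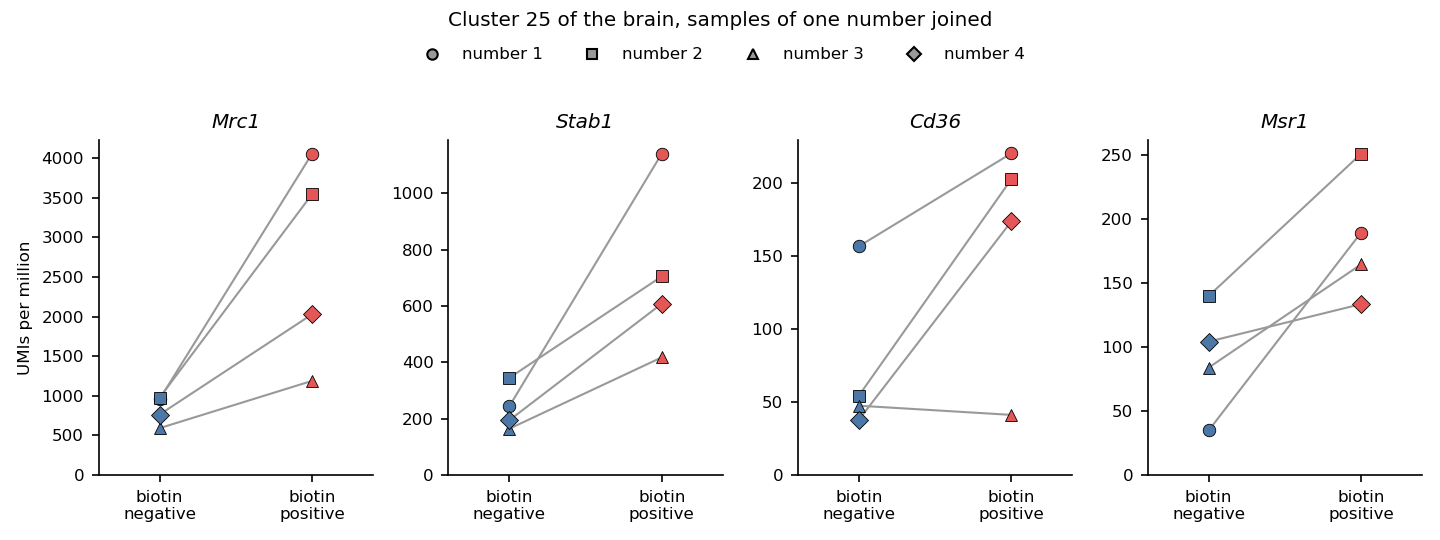
Level (CPM) of Mrc1, Stab1, Cd36 and Msr1 in cluster 25 of the brain, with lines joining the negative and positive sample of a library number. Mrc1, Stab1 and Msr1 are higher in the positive sample of each of the 4 numbers, and Cd36 in 3 of 4.

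In liver cells of cluster 28 the sorts overlapped for Timd4 and Mrc1, while both negative samples lay above the positive ones for Cd5l. Over 2 negative and 3 positive samples, Cd5l was at 3940 and 3958 against 3400, 3795 and 3818, Timd4 at 385 and 352 against 337, 429 and 347, and Mrc1 at 1094 and 867 against 1191, 1243 and 576. The first negative and the second positive values are of libraries numbered 2. Without them 1 negative and 2 positive samples remained, so no result without them is given. The log2 fold changes were -0.09 (SE 0.26) for Cd5l, 0.03 (SE 0.31) for Timd4, 0.05 (SE 0.36) for Mrc1 and -0.09 (SE 0.37) for Vsig4. Of 9 members 0 passed in edgeR or DESeq2 and 0 had an unadjusted p under 0.05, with 0% of 4166 genes passing in edgeR. The negative samples held 20 and 23 cells, and standard errors over the members ran from 0.26 to 0.75. In liver cells of cluster 25 likewise 0 of 6 members tested passed in edgeR or DESeq2, with 0% of 2696 genes passing in edgeR. There 0 members had an unadjusted p under 0.05, beside 1.71% of genes.

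Over the whole macrophage class, which mixes clusters, 0 members passed in edgeR in bone, brain or liver, where 0% of 5036, 5714 and 4478 genes passed. In these tissues 2 of 9, 1 of 5 and 1 of 9 members tested had an unadjusted p under 0.05, beside 6.37%, 10.8% and 4.44% of genes, and 0 passed in DESeq2. The lung had 1 negative sample with enough cells (31), under the minimum of 2 set for a test, so only values are given. It was the library numbered 2, and the other 3 had 7 or 8 cells each, so no value without it can be set beside these. In it 6 members lay above all 4 positive samples: Cd5l (669 against 1.05 to 21.0), Vsig4 (358 against 0 to 16.0), Msr1 (170 against 14.0 to 36.6), Scarb1 (106 against 52.5 to 65.5), Timd4 (63.8 against 0 to 2.46) and Stab1 (56.7 against 5.28 to 12.3). Mrc1 (1279 against 1270.3 to 1779.6) and Marco (967 against 354.4 to 1119) lay within the positive range, and Cd36 (251 against 302.3 to 443) below it. The mix of clusters differed: 18 of the 31 negative cells were in cluster 27, against 3760 of 3947 positive cells. In those 18 cells Timd4 was at 6.98, from 1 UMI. The part of this mix in the values was not tested. In the liver, where same-numbered libraries deviated together, the block gave 4 members that rose, with 3.06% of genes passing: Marco (2.19, SE 0.21, adjusted p = 0.00168, edgeR), Timd4 (1.93, SE 0.34, adjusted p = 0.0148), Msr1 (1.22, SE 0.23, adjusted p = 0.0181) and Vsig4 (2.16, SE 0.45, adjusted p = 0.028). Cluster 28, the cluster highest in these genes, held most of the 842 macrophage-class cells of liver positive 2. Within cluster 28 the same 4 genes differed by -0.09 to 0.42 on the log2 scale between the sorts. That fit had no block and used 2 negative and 3 positive samples. The part of the cluster mix in the rise was not tested. Without the libraries numbered 2 and without the block, the folds of these 4 genes over the class were 1.55 to 2.33 (adjusted p = 0.999, edgeR).

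In the macrophage-like cluster 0 of IIA bone, Mrc1 was at 254 and 58.9 in the 2 negative samples with enough cells and at 234, 999, 567, 962, 1067 and 793 in the positive ones (2.18, SE 0.64, adjusted p = 0.191, edgeR). Of 7 members tested 0 passed in edgeR, where 0.0831% of 6020 genes passed. At an unadjusted p under 0.05 there were 2, beside 13.9% of genes, and 1 passed in DESeq2, beside 1.54%. Cd5l was at 0 in both negative samples and at 1.45, 13.3, 26.3, 544, 163 and 571 in positive samples. Samples 4 to 6 were high and samples 1 to 3 low for Cd5l. Timd4 (0 to 27.9) and Vsig4 (0 to 66.7) were also highest in samples 4 and 6, where they rest on at most 9 UMIs.

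Monocyte-like cells, present in both sorts of each tissue, gave 0 members passing in edgeR in bone, brain, liver and lung, where 0%, 0%, 0.0118% and 0% of genes passed; 0, 0, 2 and 1 members had an unadjusted p under 0.05, beside 4.97%, 6.99%, 2.27% and 6.41% of genes. DESeq2 passed 1 member, in the lung, beside 0.212% of genes. Cd36 was the member that stood out, at 50.6, 44.3, 36.8 and 19.8 in negative and 229, 132, 87.0 and 63.3 in positive lung monocytes, with no overlap (1.74, SE 0.37, adjusted p = 0.302, edgeR). Same-numbered libraries deviated together in brain, liver and lung, and with the block Cd36 rose in the lung (1.67, SE 0.17, adjusted p = 2.43e-05), the brain (1.52, SE 0.40, adjusted p = 0.0203) and the liver (2.54, SE 0.38, adjusted p = 3.73e-08), where 2.48%, 1.07% and 0.438% of genes passed. Without the libraries numbered 2 and the block its folds were 1.85, 1.12 and 3.38, and none passed (adjusted p = 0.639, 0.818 and 0.44, edgeR).

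In lung and liver the make-up of the class also differed between the sorts, and its part in the Cd36 result was not tested. Cluster 10, the Cd36-high cluster of the class, was 11.4% to 20.3% of negative and 23.5% to 50.4% of positive lung monocytes. Cluster 13 (led by Saa3, Vcan and Thbs1) was 72.9% to 83.7% against 34.8% to 51.1%. In the liver cluster 10 was 4.20% to 11.6% of negative and 19.3% to 27.3% of positive monocytes, and in the brain the shares overlapped, at 7.09% to 15.4% against 0% to 40.0%. Within cluster 10 of the lung Cd36 was at 322 to 503 in 4 negative and 363 to 660 in 4 positive samples, which overlapped. With the block, Cd5l (3.43, adjusted p = 6.46e-09, edgeR), Marco (2.23, adjusted p = 0.000184), Mrc1 (2.13, adjusted p = 0.000526) and Vsig4 (3.57, adjusted p = 0.000932) also rose in liver monocytes, and without it these folds did not pass. The direction of Marco was not stable there: its fold without the block was 0.64, and it was -1.12 without top doublet scores, -0.76 with the members kept in clustering and -0.53 at resolution 2.0. With neither the libraries numbered 2 nor the block, the log2 fold changes were 3.34 for Marco, 4.91 for Cd5l and 2.35 for Mrc1, and none passed (adjusted p = 0.744 for each, edgeR). These genes were high in the macrophages of the same samples. The part of macrophage RNA in that rise was not tested, and B and T cells of positive liver library 2 held Marco at 117 CPM.

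Msr1 in monocytes did not pass with the sort, at 88.2 to 136 in negative and 87.9 to 112 in positive lung samples (-0.12, SE 0.19, adjusted p = 0.963, edgeR). Across tissues, negative monocytes gave 0 of 8 members passing in edgeR or DESeq2, with 4.03% of 9731 genes passing in edgeR. There 1 member, Cd36, had an unadjusted p under 0.05 (adjusted p = 0.21, edgeR), beside 16.9% of genes. With the block 1 member passed, beside 13% of genes. The sort effect in monocytes did not pass for any of 8 members as a difference between tissues in edgeR or DESeq2, with 0 at an unadjusted p under 0.05 and 0% of 9875 genes passing. In IIA bone monocytes 0 of 4 members tested passed in edgeR or DESeq2, where 0% of 9036 genes passed and 1 member, Mrc1 (2.25, SE 0.64, adjusted p = 0.284), had an unadjusted p under 0.05, beside 8.67% of genes.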

How the data were processed

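Single cells from sorted mouse tissues were sequenced as 3′ libraries for the 32 intracardiac samples and as 1 pooled, hashtagged 5′ library for IIA bone. Deposited values are raw UMI counts of each gene in each cell, from the authors' matrices. The submitters' processing notes name Cell Ranger, Seurat and mm10, with versions not given in the sources used here. The members and gene lists were chosen with earlier results of these data known, and named genes were the 9 members plus up to 3 listed genes per comparison with the smallest p among those passing, with likeness given for the top 2 genes.

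Of 57065 intracardiac barcodes, the 55366 kept had 500 or more UMIs, 200 or more genes and no more than 15% mitochondrial UMIs. In IIA bone 22685 of 26666 barcodes were assigned to a hashtag holding 10 or more counts and 3 or more times the runner-up, and 22362 were kept. Median UMIs per cell ran from 2606 to 11313.5. Doublets were not removed, and an alternative leaves out the top 5% of Scrublet scores. Cells were clustered with scanpy 1.11.5 and igraph 0.11.9 (Leiden resolution 1.0, the 9 members left out), and clusters were named from fixed marker lists.

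UMIs were summed per sample and type (at least 10 cells) and tested with edgeR 4.0.16 in R 4.3.3 (quasi-likelihood test, TMM, filterByExpr), with Benjamini-Hochberg adjustment over all genes tested and an adjusted p of 0.05 as the threshold, checked on simulated counts. DESeq2 1.42.0, no low-count filter, other clusterings, leaving samples out and a replicate block were alternatives. The liver against bone comparison and leaving out all libraries numbered 2 were chosen after seeing the data. Replicate numbers were taken to pair samples where every pair of deviations correlated above 0.1 over at least 3 pairs: all cells of bone (0.448 to 0.738), brain (0.213 to 0.629) and liver (0.256 to 0.501), macrophages of brain and liver, monocytes of brain, liver and lung, and cluster 25 of the brain. Gene positions are GENCODE on GRCm38.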

Additional observations from a re-analysis of the deposited data

Results flagged for a closer look

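In 42 of 146 groups of 4 to 6 samples, the highest sample of a gene stood far from the others, its gap to the next sample being a larger part of the group's range than Dixon's 95% critical value. The rate of about 1 in 20 groups holds for independent, normally spread samples. These groups share samples across genes and all 42 flags were of the highest sample, so no excess over that rate is read. Of the 42 samples, 37 were libraries or IIA samples numbered 2. Values are CPM over all cells unless a cluster is named. Cd36 stood at 161.53 in brain positive 2 and 156.66 in cluster 25 of brain negative 1. Cd5l stood at 10.54 in bone negative 2, 17.26 in brain negative 2, 18.05 in brain positive 2, 3192.31 in liver positive 2, 32.54 in lung negative 2 and 2.45 in IIA bone negative 4. Marco stood at 30.71 in bone negative 2, 86.99 in bone positive 2, 48.09 in brain negative 2, 54.78 in brain positive 2, 73.91 in liver negative 2, 3359.79 in liver positive 2, 75.11 in lung negative 2, 469.05 in cluster 15 of liver negative 1, 62.05 in cluster 25 of brain positive 2, 29.02 in IIA bone positive 2 and 50.42 in cluster 0 of IIA bone positive 2. Mrc1 stood at 631.2 in bone positive 2, 2664.76 in brain positive 2, 1120.88 in liver positive 2, 89.44 in cluster 30 of brain positive 2 and 8.09 in IIA bone negative 2. Msr1 stood at 194.52 in brain positive 2 and 89.44 in cluster 30 of brain positive 2. Scarb1 stood at 150.37 in liver positive 2. Stab1 stood at 537.81 in brain positive 2 and 25.23 in lung negative 2. Timd4 stood at 1.01 in bone negative 2, 360.75 in liver positive 2, 5.18 in lung negative 2, 2.18 in cluster 27 of lung positive 2 and 2.93 in IIA bone positive 3. Vsig4 stood at 8.3 in bone negative 2, 18.32 in bone positive 2, 12.78 in brain negative 2, 25.21 in brain positive 2, 1916.5 in liver positive 2, 19.71 in lung negative 2, 109.05 in cluster 25 of brain negative 4 and 14.97 in cluster 27 of lung positive 2. For Cd5l and Marco of liver positive 2 the next samples were at 255 and 55.2. No cause was tested.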

How the results depend on the processing

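Counts of members passing in edgeR moved as follows, and the cause was not tested. Shares of all genes passing are given above for DESeq2. They are not given for the settings without the filter, without top doublet scores or without libraries numbered 2. For brain, all cells, from 0 to 1 with no low-count filter, 3 in DESeq2, 1 without top doublet scores and 1 without libraries numbered 2. For liver, all cells, 1 in DESeq2. For lung, all cells, from 2 to 5 without libraries numbered 2. Macrophages of liver had 4 with no filter. Monocytes of liver had 1 with no filter, and those of lung 1 with no filter and 1 in DESeq2. IIA macrophages had 1 in DESeq2 and IIA monocytes 2 with no filter. Cluster 25 of the brain had 3 with no filter, 2 in DESeq2 and 2 without top doublet scores. Liver against bone in cluster 28 is not counted without libraries numbered 2, since 1 bone sample remained.

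With the replicate block, where numbers pair samples, counts were 4 in brain (all cells), 4 in liver macrophages, 1 in brain monocytes, 5 in liver monocytes, 1 in lung monocytes and 3 in cluster 25 of the brain, each from 0, and it changed no other count of these by over 1.5 times. Elsewhere the correlations did not all pass 0.1 or there were 2 pairs, so samples share only a number: the block gave 2 in IIA macrophages, 1 for the tissue difference of the sort effect (all cells), 1 for tissue differences of negative monocytes and 8 for liver against bone, against 0, 0, 0 and 5, where 6.45%, 4.94%, 13% and 12.3% of genes passed with the block.

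Leaving out 1 sample at a time gave 0 to 1 members in brain (all cells), with 1 without brain negative 2 or brain positive 1. It gave 2 to 5 in lung and 4 to 5 in IIA bone (all cells). Cluster 25 of the brain gave 0 to 3 (3 without brain positive 3), and negative monocytes between tissues 0 to 1 (1 without liver negative 2). In bone macrophages leaving out any sample leaves 1 in a group, as leaving out a bone sample does in liver against bone. No counts are given for these comparisons. The fold of Cd5l over all lung cells (0.26) ran from -0.072 to 2.76, being lowest without lung negative 1 and -0.04 without lung negative 3. The fold of Marco in liver monocytes (0.64) was -1.12 without top doublet scores, -0.76 with the members kept in clustering and -0.53 at resolution 2.0. Of 183 counts under alternatives, 157 stayed within 1.5 times of the reported count. Most reported counts were 0, and 0 against 0 was scored as unchanged, so this number does not measure stability. The lung macrophage comparison and its alternatives were not run, since 1 negative sample had enough cells and the minimum was set at 2.

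Macrophages in negative sorts were few, so cluster comparisons between sorts rest on 2 to 4 samples, and a level under 3 UMIs in a sample cannot be told from 0.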

Other observations

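Endothelial-like cluster 29 of the liver, which the comparisons of macrophages leave out, carried several of the receptors. Over 7 samples with 414 cells, Cd36 ran from 403 to 1320 CPM there, beside the levels of Stab1, Mrc1 and Msr1 given above. These are values of sorted samples of both sorts together, and no difference between the sorts was tested.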
